A study of Mus musculus with 2 samples.

Results

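Heterotrimeric G proteins carry signals from receptors that span the cell membrane, the G protein-coupled receptors, to enzymes inside the cell. A G protein is made of an alpha subunit, which binds and hydrolyses GTP, and a paired beta and gamma subunit. The alpha subunit decides which enzyme is addressed. Members of the Gq/11 class (Gna11, Gnaq, Gna14, Gna15) switch on phospholipase C beta, which releases calcium and activates protein kinase C. Members of the Gi class (Gnai2, Gnai3) restrain adenylyl cyclase and serve chemokine receptors, and Gnas of the Gs class stimulates adenylyl cyclase. Gna12 and Gna13 make up the G12/13 class. In blood-forming tissue these subunits relay the chemokine, lipid and protease signals that place stem and progenitor cells in the marrow.

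Described here are 8 of the 16 alpha subunit genes among 32285 genes in the files, namely Gna11, Gnaq, Gna12, Gna13, Gna15, Gnai2, Gnai3 and Gnas. The set was chosen by measured values of these same libraries, since Gna11 was picked for its rise in the knockout and its miR-142 site, so the ratio of Gna11 is a description and not a finding. All 8 members reached a mean of 10 CPM over both libraries (counts of unique molecular identifiers, UMIs, 1 per captured transcript, scaled to a common library total), as did 7483 genes in all. Each UMI tags the 3′ end of a transcript once, so levels of different genes can be set side by side without a correction for length, though genes may differ in how well they are captured.

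The study compared mouse leukemic stem cells with and without the microRNA miR-142. Bone marrow cells lacking lineage markers and carrying Sca-1 and c-Kit (LSK cells), a fraction enriched in stem and early progenitor cells, were studied by 10x Genomics single cell RNA-seq with about 8000 cells captured per sample. The miR-142 WT CML library came from mice with intact miR-142 and the miR-142 KO CML library from mice without it. Both groups were 8 to 10 weeks old and carried BCR-ABL, the fusion oncogene of chronic myeloid leukemia (CML), as a transgene in which the SCL promoter drives the transactivator and withdrawal of tetracycline starts expression, on the B6 strain background. The oncogene was thus on in both libraries, and expression is limited to cells in which that promoter works. How many mice were pooled for each library was not given in the labels. With 1 library per group no test was possible, and each 95% interval reflects counting error alone and leaves out the variation between mice.

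Barcodes with at least 8000 UMIs and under 10% mitochondrial UMIs were taken as cells, which left 5363 WT cells with a median of 19443 UMIs and 5458 KO cells with a median of 24181.5 UMIs. Only 4 barcodes occurred in both libraries. Transcripts of the sort markers were present in both libraries. Kit stood at 86.4 CPM in WT against 68.3 CPM in KO, and the Sca-1 gene Ly6a at 96.8 against 153 CPM. Without unsorted cells for comparison these levels do not check the sort. Mir142hg, the host transcript of miR-142, had 1260 UMIs in WT and 20 in KO (9.12 and 0.126 CPM). Cells were placed in groups by marker genes, none of them a G protein gene, and 10 groups held 100 or more cells in both libraries. The makeup differed widely: neutrophil-leaning cells were 3.06% of WT and 39.2% of KO cells, HSC-gated cells (stem cell markers) 14.7% and 4.89%, and lymphoid-primed cells 16.4% and 7.11%. A ratio over all cells therefore also carries this shift, and values within groups are given beside it. The median log2 ratio (KO over WT) of all 7483 genes was -0.08, against which each ratio should be read.

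The strands of miR-142 and the places in the members that match them are shown first, because 1 of the 8 genes carries more matches than nearly all others. A microRNA pairs with transcripts mainly through its seed, bases 2 to 8, in capitals here, and lowers the stability and translation of transcripts that match. The mature sequences are from RefSeq (GRCm38.p6) and lie on the plus strand at chr11:87756867-87756887 for the 5p strand and chr11:87756903-87756925 for the 3p strand.
mmu-miR-142a-5p: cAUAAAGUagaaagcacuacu
mmu-miR-142a-3p: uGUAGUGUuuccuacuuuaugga

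The longest annotated 3′ untranslated region (UTR) of each gene (GENCODE M21, mm10, the build that the submitters' processing notes name) was searched, on the transcript strand alone, for ACACTAC, the complement of the 3p seed, and ACTTTAT, that of the 5p seed. Gna11 (ENSMUSG00000034781, chr10:81528724-81545190, minus strand) held ACACTAC 3 times in a UTR of 2071 bases, and Gnaq (ENSMUSG00000024639, chr19:16132831-16387463, plus strand) held it 1 time in 4069 bases. The 6 other members held none in UTRs of 566 bases (Gna15) to 4883 bases (Gna13), and no member held ACTTTAT, so the motifs did not overlap. The 4 matches are printed on the transcript strand in windows of 30 bases with the heptamer in capitals.
Gna11 match 1: agccaggtgacACACTACagggtctagtga
Gna11 match 2: gctgctcatatACACTACagtgtctatctg
Gna11 match 3: tgccatcccatACACTACagagctacatgg
Gnaq match: tacgccaacagACACTACattccccagcag

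The Gna11 windows lie in the exonic 3′ UTR at chr10:81530223-81530252, chr10:81529803-81529832 and chr10:81529465-81529494, beginning their heptamers at bases 554, 974 and 1312 of the UTR, and the Gnaq window at chr19:16384339-16384368, at base 956. Each of the 4 heptamers was followed by an A, which gives ACACTACA, an octamer that 2.78% of the 7327 tested genes with a UTR held anywhere in it. ACACTAC itself was in 6.61% of these genes, and 2 or more copies were in 0.532%. Only Gna11, Crk and Gpatch11 among them held 3 or more, and these genes differed in their ratios (1.76, 0.44 and -0.04), with Gpatch11 carrying 6 copies. A match is a run of letters and was not tested as a binding site.

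Gna11, the Gq/11 subunit found in most tissues, stood at 18.6 CPM in miR-142 WT CML (2571 UMIs, 95% interval 17.9 to 19.3) and 63.1 CPM in miR-142 KO CML (9992 UMIs, 61.8 to 64.3). Its log2 ratio was 1.76 (95% interval 1.70 to 1.82), a 3.39-fold difference and the 17th highest of 7483 genes. It was the 1 member of 8 that lay at least 2-fold apart. Over all genes tested, 1.02% had a KO level at least 2-fold above WT and 1.18% one at least 2-fold below, and since Gna11 was selected on this contrast nothing is read from that count. In order of level Gna11 moved from the seventh place among the 8 members in WT, above Gna12 alone, to the fourth in KO, where its interval lay below that of Gnai3 (67.5 to 70.1 CPM) and above that of Gna13 (35.7 to 37.6 CPM).

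**Figure D1:**
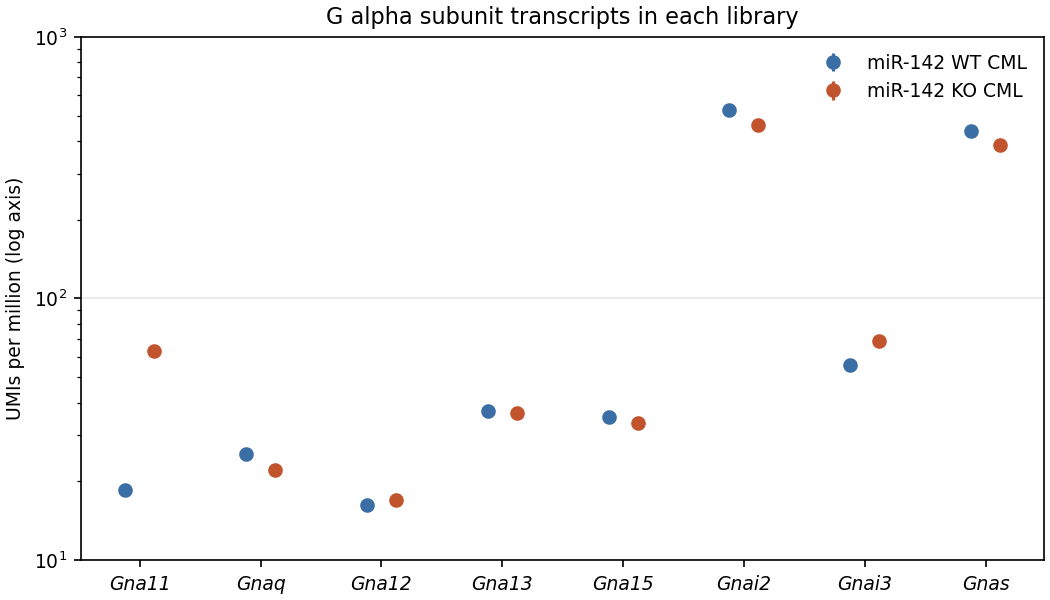
CPM (log axis) of the 8 alpha subunit genes in both libraries (miR-142 WT CML in blue, miR-142 KO CML in orange), 1 point per library; bars for the 95% Poisson intervals are mostly smaller than the points. Gna11 goes from 18.6 to 63.1 CPM, while no other member's libraries lie more than 1.23-fold apart.

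The higher level of Gna11 was present in every cell group. In WT it varied little between groups, from 15.2 CPM in basophil/mast cells to 20.3 CPM in monocyte-leaning cells. In KO it lay between 49.1 CPM in ungated cells and 74.6 CPM in basophil/mast cells, so the lowest KO group was above the highest WT group. The basophil/mast group was thus lowest in WT and highest in KO, with the widest log2 ratio of 2.30 (95% interval 1.93 to 2.68).

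HSC-gated cells went from 17.0 to 58.6 CPM (log2 ratio 1.78, 95% interval 1.46 to 2.11), close to the value over all cells. Neutrophil-leaning cells went from 15.7 to 63.4 CPM (2.01, 1.78 to 2.25), and monocyte-leaning cells from 20.3 to 66.3 CPM (1.71, 1.59 to 1.83). The intervals of the neutrophil-leaning and monocyte-leaning ratios thus overlapped that of the HSC-gated cells, and differences between groups were not tested. Lymphoid-primed cells had 17.1 and 53.6 CPM (1.65), megakaryocyte-gated cells 18.8 and 60.1 CPM (1.68), G2/M-phase cells 18.1 and 65.7 CPM (1.86) and S-phase cells 20.2 and 62.4 CPM (1.62). The smallest ratios were those of erythroid-gated cells (20.1 and 50.8 CPM, 1.34, 95% interval 0.85 to 1.86) and ungated cells (19.6 and 49.1 CPM, 1.32, 1.004 to 1.64). All 10 groups were at least 2-fold higher in KO, a pattern that 9 of 7483 genes (0.12%) had. By any amount, 8.11% of genes were higher in each of the 10 groups. Since Gna11 was selected on this contrast, nothing is read from these shares. The groups share their 2 libraries and are not replicates. Innate lymphoid cells (8 in WT and 186 in KO) and antibody-secreting cells (36 and 0) were too few to compare. KO innate lymphoid cells had 60.4 CPM of Gna11, within the range of the other KO groups, and WT antibody-secreting cells had 5.39 CPM from 6 UMIs.

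**Figure D2:**
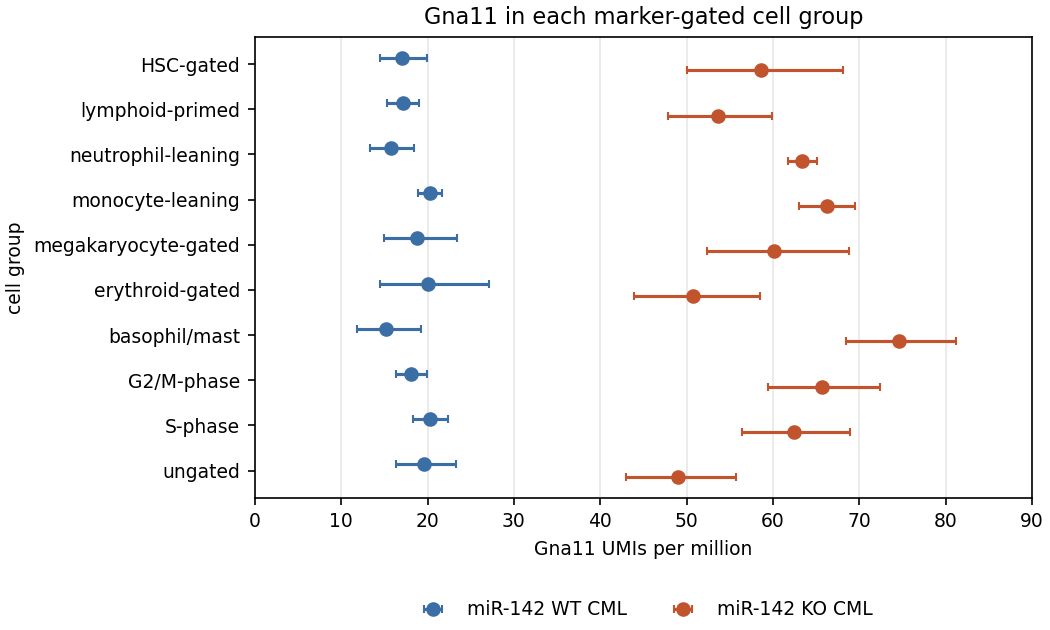
Gna11 CPM (x axis) in each of the 10 marker-gated cell groups (y axis), 1 point per library with its 95% Poisson interval. WT points sit between 15.2 and 20.3 CPM and KO points between 49.1 and 74.6 CPM, and the intervals of the libraries do not overlap in any group.

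Depth differed between the libraries. Over all cells the median UMIs were higher in KO, but within each of the 10 groups they were lower in KO. Neutrophil-leaning cells, for example, had a median of 59268.5 UMIs in WT and 40685.5 in KO. The share of cells with a Gna11 UMI was therefore taken from 8000 UMIs drawn at random per cell (thinning). Gna11 was then seen in 14.1% of WT cells (95% binomial interval 13.2 to 15.1) and 37.3% of KO cells (36.1 to 38.6). Without thinning the shares were 33.8% and 71.1%. Cells with 2 or more Gna11 UMIs after thinning were 1.29% of WT and 8.56% of KO cells. By group the thinned share ran from 11.6% (neutrophil-leaning) to 17.5% (erythroid-gated) in WT and from 31.8% (erythroid-gated) to 41.2% (basophil/mast) in KO, so that each KO group was above each WT group.

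For background, Gnat1, Gnat3, Gnal and Gnao1, alpha subunits of sensory and nerve cells, were seen in at most 0.578% of thinned cells, and Gnat2, the cone subunit, in 1.60% of WT and 0.824% of KO cells. Gnat3 had a UMI in 0 of 5363 WT cells, and 3 counts of that total give a limit of 0.0559% on cells with a UMI, not on cells that express the gene. In barcodes of at most 100 UMIs, which hold free RNA, Gna11 stood at 15.3 CPM in WT against 40.2 CPM in KO, so free RNA differed in the same direction as the cells. The part of free RNA in the cell values was not tested beyond subtracting it at an assumed 5% of UMIs, which gave a log2 ratio of 1.77.

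**Figure D3:**
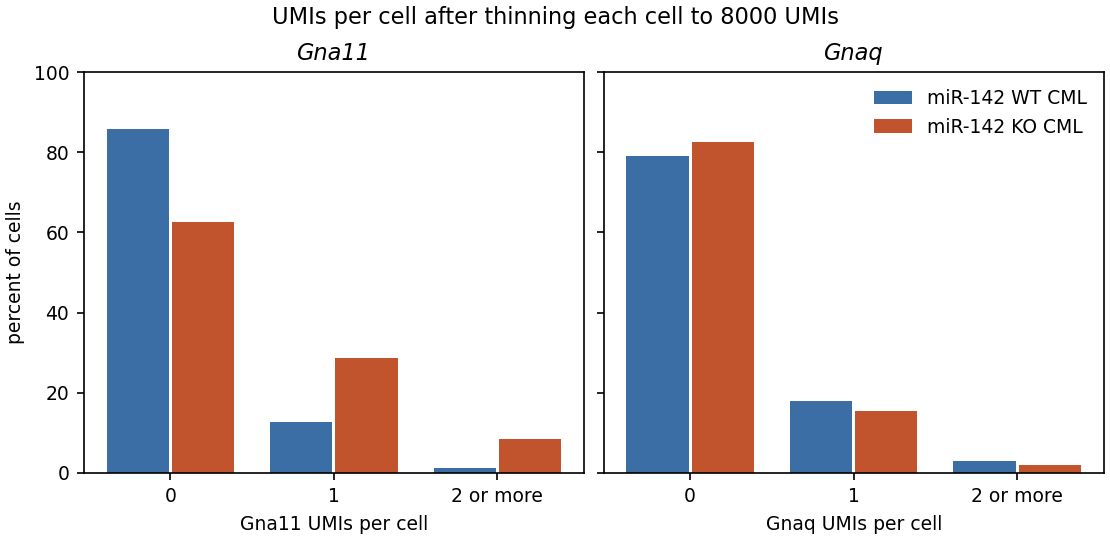
Percent of cells (y axis) with 0, 1, or 2 or more UMIs (x axis) of Gna11 (left) and Gnaq (right) after each cell was thinned to 8000 UMIs, with 1 bar per library. For Gna11 the cells with none go from 85.9% in WT to 62.7% in KO, and for Gnaq from 79.1% to 82.6%.

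Depth itself was examined by splitting cells on their UMIs. The log2 ratio of Gna11 was 1.60 in cells of 8000 to 16000 UMIs, 1.64 in those of 16000 to 32000 UMIs and 1.84 in those over 32000 UMIs. In WT the level was flat over these classes (18.1, 18.8 and 18.7 CPM), while in KO it went from 54.9 over 58.5 to 66.6 CPM. Neutrophil-leaning cells are the deepest of the KO groups, with a median of 40685.5 UMIs. In WT they had a median of 59268.5 UMIs and 15.7 CPM of Gna11. The depth classes were not split by cell group, so the parts of depth and cell type were not tested.

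Gnaq, the closest relative of Gna11 and coupled to the same enzyme, had 25.4 CPM in WT (3503 UMIs) and 22.2 CPM in KO (3517 UMIs), a log2 ratio of -0.19 (95% interval -0.26 to -0.12). The direction did not carry over to the cell groups, of which 7 of 10 had more Gnaq in KO. Basophil/mast cells went from 12.02 to 20.5 CPM (log2 ratio 0.77, 0.31 to 1.25) and monocyte-leaning cells from 18.0 to 21.8 CPM (0.28, 0.12 to 0.44). Neutrophil-leaning cells, at 16.2 and 18.9 CPM, had little Gnaq in both libraries, and HSC-gated cells the most, at 38.9 and 33.7 CPM. With both libraries set to the same mix of the 10 groups, the mean of their compositions, the log2 ratio was 0.09 (95% interval 0.003 to 0.18) in place of -0.19. Gnaq ranked 342nd of the 484 tested genes with an ACACTAC heptamer by its ratio. Gna11 was the first, a place that restates its selection for a site and a rise.

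Gna15, a Gq/11 subunit restricted largely to blood cells and able to couple to many receptors, had 35.3 CPM in WT against 33.3 CPM in KO (4874 and 5282 UMIs, log2 ratio -0.08, 95% interval -0.14 to -0.02), the same as the median gene. Within groups it was higher in KO in 8 of 10, and 4 of the intervals lay above 0. Monocyte-leaning cells went from 25.6 to 33.5 CPM (0.39, 0.26 to 0.52) and neutrophil-leaning cells from 21.2 to 27.8 CPM (0.39, 0.18 to 0.61). These granule-rich groups had the least Gna15 in WT, while megakaryocyte-gated (53.8 CPM) and HSC-gated cells (51.5 CPM) had the most. At the same mix of groups the log2 ratio of Gna15 was 0.26 (0.19 to 0.33).

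Gna14, the fourth subunit of the class and below the CPM minimum (3.57 and 3.35 CPM), was concentrated in basophil/mast cells, at 30.2 CPM in WT against 27.3 CPM in KO, against at most 9.12 CPM in any of the other 9 groups. Gnaz, a Gi-class subunit insensitive to pertussis toxin, had its highest level there too, at 20.9 CPM in WT against 7.16 CPM in KO (92 and 52 UMIs).

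The makeup of the Gq/11 class differed between the libraries. Of its UMIs, Gna11 made up 22.5% in WT (95% interval 21.7 to 23.2) and 51.7% in KO (51.0 to 52.4), Gnaq 30.6% and 18.2%, Gna15 42.6% and 27.3%, and Gna14 4.31% and 2.75%. Gna11 thus went from the third to the first place in the class. The class as a whole had 82.8 CPM in WT against 122 CPM in KO (log2 ratio 0.56), whereas its 3 genes other than Gna11 together had 64.2 and 58.9 CPM (-0.12). Among UMIs of all 16 alpha subunits the class made up 7.16% in WT and 11.2% in KO.

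The share of Gna11 in the class was larger in KO in each of the 10 groups. It went from 15.2% to 36.1% in HSC-gated cells, from 16.9% to 43.4% in G2/M-phase cells, from 29.4% to 57.1% in neutrophil-leaning cells, from 31.4% to 53.8% in monocyte-leaning cells and from 17.7% to 49.6% in basophil/mast cells. In HSC-gated KO cells Gna15 still held 37.6% of the class, next to the 36.1% of Gna11, and the intervals of these shares overlapped (33.2 to 42.2 and 31.7 to 40.6).

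**Figure D4:**
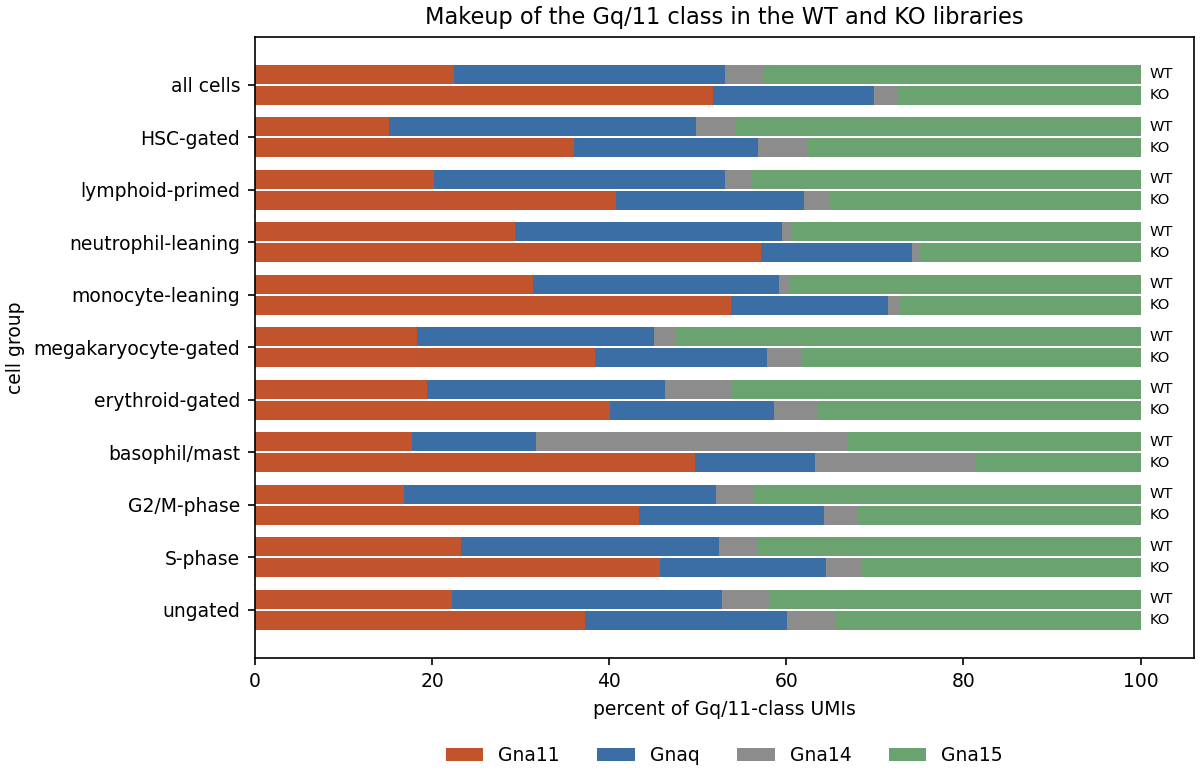
Percent of Gq/11-class UMIs (x axis) that belong to Gna11, Gnaq, Gna14 and Gna15, for all cells and for each cell group (y axis), with the WT bar above the KO bar. The Gna11 part is larger in KO in each pair, from 22.5% to 51.7% over all cells, and Gna14 takes a large part only in basophil/mast cells.

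Gnai2, the main Gi subunit of blood cells, through which CXCR4 and other chemokine receptors signal, was the most abundant member, with 523 CPM in WT against 460.0 CPM in KO (72308 and 72876 UMIs, log2 ratio -0.19, 95% interval -0.20 to -0.17). It was lower in KO in 9 of 10 groups, with 7 intervals below 0, and none of these ratios was beyond -0.20 (megakaryocyte-gated cells, 483 and 421 CPM). At the same mix of groups the log2 ratio of Gnai2 was -0.10, near the median of all genes at that mix (-0.06). Nearly all cells had a Gnai2 UMI after thinning (97.8% of WT and 96.9% of KO cells).

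Gnai3, the other Gi subunit of these cells, was the second of the members higher in KO, with 55.9 CPM in WT against 68.8 CPM in KO (7720 and 10894 UMIs, log2 ratio 0.30, 95% interval 0.26 to 0.34). Most of this difference was not seen within groups, where the log2 ratio ran from -0.08 (S-phase) to 0.24 (megakaryocyte-gated) and 2 of 10 intervals lay above 0. At the same mix of groups the log2 ratio of Gnai3 was 0.11 (0.05 to 0.16). Its level differed between cell groups more than between libraries, from 47.6 CPM in S-phase to 101 CPM in basophil/mast cells of WT, and from 44.9 to 110 CPM in the same groups of KO. Neutrophil-leaning cells, the group that grew most, had 64.2 CPM in WT against 73.9 CPM in KO.

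Gnas, whose main product is the alpha subunit that raises cyclic AMP, had 436 CPM in WT against 385 CPM in KO (60271 and 61073 UMIs, log2 ratio -0.18, 95% interval -0.19 to -0.16). Within groups the ratios lay close to 0, with 2 of 10 intervals above it and 2 below, and at the same mix of groups the log2 ratio was 0.03 (0.01 to 0.05). Gnas was lowest in granule-rich cells (310 CPM in monocyte-leaning and 327 CPM in neutrophil-leaning WT cells) and highest in megakaryocyte-gated cells (609 CPM in WT against 645 CPM in KO). The largest difference within a group was that of monocyte-leaning cells, from 310 to 352 CPM (0.18, 0.14 to 0.22). The locus also gives rise to other imprinted transcripts, among them the antisense gene Nespas, and its products were counted as 1 gene here.

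Gna12 and Gna13, the subunits of the G12/13 class, had little difference over all cells. Gna12 had 16.2 CPM in WT against 17.0 CPM in KO (log2 ratio 0.07, 95% interval -0.01 to 0.15), and Gna13 had 37.3 and 36.7 CPM (-0.03, -0.08 to 0.03). Their class totalled 53.5 CPM in WT against 53.6 CPM in KO. Gna12 lay further apart within groups, in opposite directions: megakaryocyte-gated cells had 13.7 CPM in WT against 23.7 CPM in KO (0.79, 0.30 to 1.30, from 59 and 84 UMIs), and erythroid-gated cells 22.5 and 12.9 CPM (-0.80, -1.41 to -0.19, from 47 and 49 UMIs). Gna13 was higher in KO in ungated cells (39.3 and 48.4 CPM, 0.30) and lower in S-phase cells (38.5 and 31.6 CPM, -0.29). Differences between groups were not tested, since each rests on 1 library per condition.

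**Figure D5:**
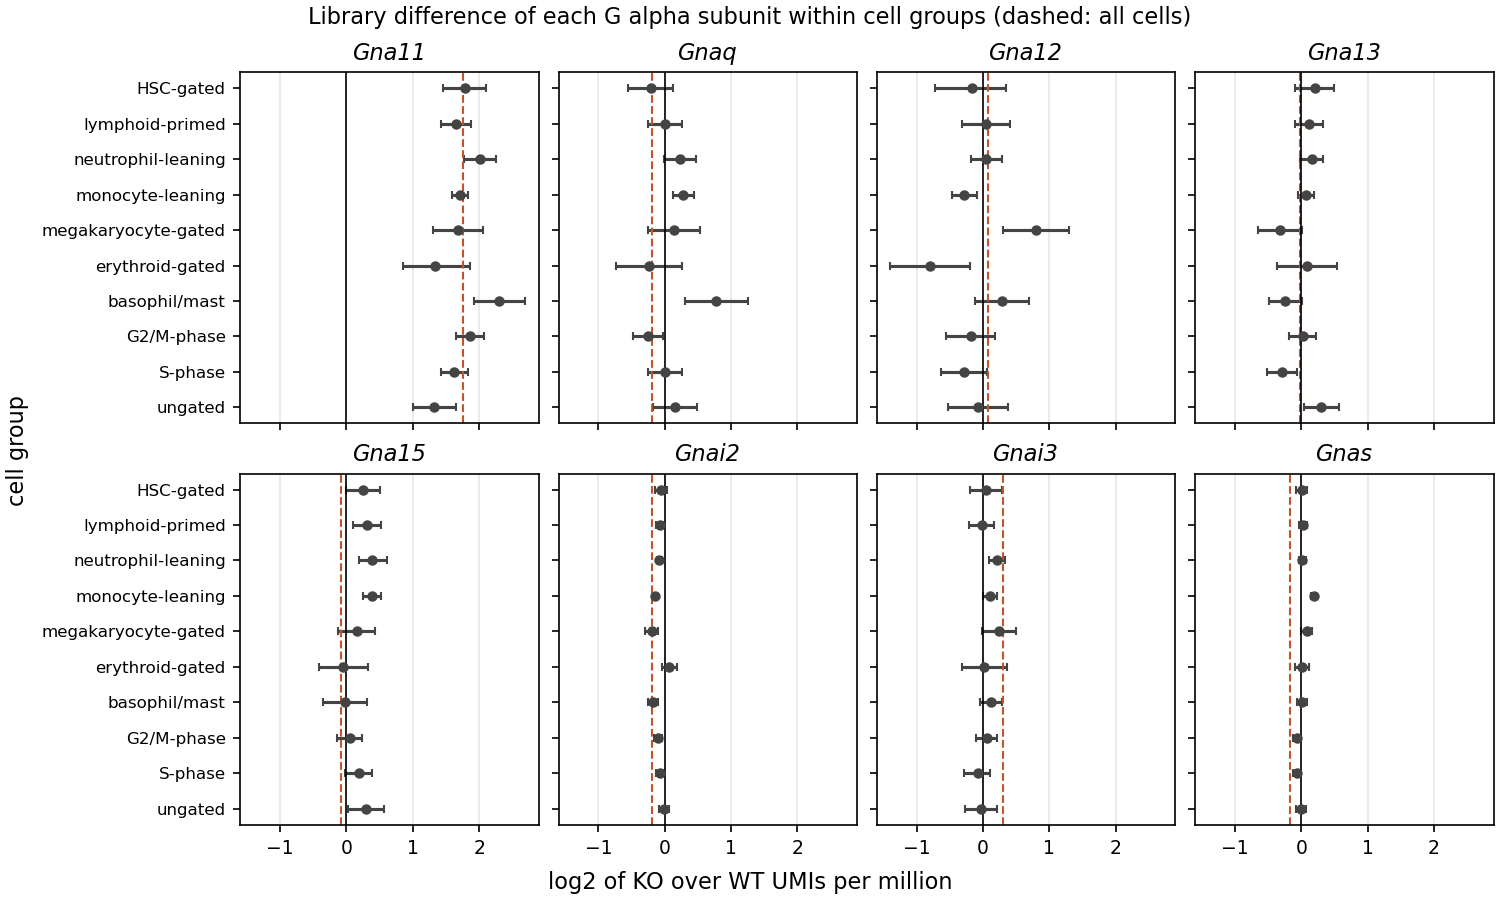
Log2 ratio of CPM, KO over WT (x axis), of each member in the 10 cell groups (y axis), with 95% intervals for counting error; the dashed line is the ratio over all cells. Gna11 lies between 1.32 and 2.30 in each group, while the ratios over all cells of Gna15 and Gnas (-0.08 and -0.18) lie to the left of most of their groups.

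Over all cells 3 of the 8 members were higher in KO (Gna11, Gna12, Gnai3), against 38.1% of all genes tested, which is no more than the background. At the same mix of groups 6 of 8 were higher (all but Gna12 and Gnai2), against 37.6% of all genes at that mix. Without neutrophil-leaning cells 6 of 8 were higher as well, against 38.5% of all genes. Both counts include Gna11, which was selected for its rise. At the same mix the interval of Gna13 included 0 (-0.02 to 0.12), and those of Gnaq and Gnas began at 0.003 and 0.006. The intervals of Gna15 (0.19 to 0.33) and Gnai3 (0.05 to 0.16) lay above 0. Apart from Gna11, none of the ratios at the same mix went beyond 0.26 on the log2 scale. The ratio of Gna11 was 1.81 at the same mix (17.9 and 62.6 CPM, 95% interval 1.72 to 1.89), the third highest of all genes tested there. Nothing is read from that place, since Gna11 was selected for its rise.

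The rest of the pathway, read from lists of 147 genes, had 56 genes above the CPM minimum. The lists were chosen with earlier results of these data known, so the counts are a description. Of these 14 (25.0%, 95% binomial interval 14.4 to 38.4) were higher and 42 lower in KO. Among all genes tested 38.1% were higher, a share inside that interval, and the counts of each list below have the same background. The median log2 ratio was -0.19, against -0.08 for all genes. These counts are over all cells and were not repeated at the same mix of groups. Of the 5 beta subunits listed, 3 were measured above the minimum and 1 was higher, and of the 12 gamma subunits 6 were measured and 3 were higher. Gng11, a gamma subunit with a farnesyl anchor, was the one most apart, with 35.4 CPM in WT against 3.81 CPM in KO (4893 and 604 UMIs, log2 ratio -3.22, 95% interval -3.34 to -3.09), and it was lower in each of the 10 groups. Gng2 had 58.3 and 34.9 CPM (-0.74, lower in 9 of 10 groups) and Gnb4 18.0 and 10.3 CPM (-0.81, lower in 6 of 10 groups).

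On the effector side of Gq/11, both phospholipase C beta genes above the CPM minimum (Plcb2 and Plcb4) were lower in KO over all cells (median log2 ratio -0.28), as were the 7 such genes listed downstream of it (median -0.28), while 38.1% of all genes tested were higher. These signs did not all hold within groups, since Fos was higher in KO in 10 of 10 groups, Itpr2 in 8 and Plcb4 in 7. Below the minimum, Plcb3 had 6.38 and 9.52 CPM (882 and 1508 UMIs, log2 ratio 0.58, 95% interval 0.46 to 0.70) and was higher in each of the 10 groups, and the protein kinase C gene Prkcb was higher over all cells (602 and 950 UMIs, 0.46, 0.31 to 0.61) but in 3 of 10 groups. Among those and others listed there, Prkce and Prkcq, protein kinase C isoforms, had 12.7 and 4.94 CPM (-1.36) and 10.3 and 5.996 CPM (-0.79), Prkca had 11.3 and 7.49 CPM (-0.59), and Egr1, an immediate early transcription factor, had 235 and 146 CPM (-0.69). Prkce was lower in each of the 10 groups, whereas Egr1 was higher in KO in 7 of 10 groups and Prkca in 6 of 10, so that the values over all cells of the last pair did not carry over. Activity of the pathway was not measured.

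Of 53 receptors listed, 18 were above the minimum, with 7 higher and 11 lower in KO, close to the 38.1% of all genes tested that were higher. The largest ratios were those of Mrgpra2b, a receptor of the Mas-related family, with 11.4 CPM in WT against 58.7 CPM in KO (2.37), and its near-identical neighbour Mrgpra2a with 4.62 and 23.3 CPM (2.34), whose reads may be shared. Ltb4r1, the receptor of leukotriene B4, had 18.7 and 38.5 CPM (1.04). Cxcr2, a neutrophil chemokine receptor coupled to Gi whose mean was below the minimum, had 5.80 and 11.3 CPM (0.96). Both Ltb4r1 and Cxcr2 were higher in KO in 9 of 10 groups. Of the receptors under 10 CPM in both libraries, Cysltr1 (2.09) and S1pr1 (-2.06) lay further apart than Cxcr2. Adgrl4, an adhesion receptor, had 202 and 103 CPM (-0.98) and was lower in 8 of 10 groups. The lists of regulators gave smaller ratios. RGS genes speed GTP hydrolysis by alpha subunits, and 1 of 5 measured was higher. Of 4 measured GRK and arrestin genes 1 was higher, and of 5 measured chaperones and modulators 1. Signs over all cells did not all hold within groups. Of genes counted as lower, Rgs1 was higher in KO in 10 of 10 groups and Rgs2 in 7, but Rgs18 in 5 and Rgs19 in 4. Of receptors counted as lower, Gpr146 was higher in 9 groups, F2rl3 in 8, and Adgrg1 and Gpr171 in 7, but S1pr4 in 3.

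The neighbours of Gna11 on chromosome 10 did not share its difference. Gna15 starts 20.97 kb from the start of Gna11 on the same strand (log2 ratio -0.08), and Tle5 14.3 kb away on the other side (-0.18). Of the other genes with starts within 100 kb that reached the CPM minimum, Ncln was higher in KO (50.03 and 67.8 CPM, 0.44), and S1pr4, a lipid receptor (-0.30), Nfic (-0.28), Sirt6 (-0.23) and Ankrd24 (-0.01) were not.

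The genes whose profile was most like that of Gna11 were found over the 20 combinations of library and cell group, by Pearson's r of log2(CPM + 1), as a description, since the points share 2 libraries. They were Tsen34 (r = 0.960), Tspoap1 (0.948), Rab12 (0.944), Impad1 (0.939) and Cfl2 (0.937). Tspoap1 starts 3.27 kb past the end of Mir142hg on chromosome 11 and had 4.002 CPM in WT against 338 CPM in KO, and so is a neighbour of the deleted locus. Of the 8 genes besides Gna11 that were at least 2-fold higher in each of the 10 groups, 3 (Tsen34, Bod1 and Cfl2) held ACACTAC in their UTR, with log2 ratios of 1.53, 1.19 and 1.69. Gna11 is left out of this count because it was chosen for its site and its rise. Among all 7327 tested genes with a UTR, 6.61% held ACACTAC. The 8 genes were listed for their rise in these same libraries, so nothing is read from the count. The other 5 (Tmem215, Mrgpra2b, Tspoap1, Fbp1, Oosp1) held no ACACTAC, and Tmem215 held 1 ACTTTAT. The windows of the 3 genes other than Gna11 are printed with the heptamer in capitals, for comparison with those of Gna11.
Tsen34 match (chr7:3700817-3700846, plus strand): cagggttttgaACACTACatcctttctgtt
Bod1 match (chr11:31665625-31665654, minus strand): gaccctagtagACACTACagaggtttaagc
Cfl2 match 1 (chr12:54860452-54860481, minus strand): ccgatgagtgtACACTACtgtataatttat
Cfl2 match 2 (chr12:54860412-54860441, minus strand): tgagtcttgaaACACTACagatattttgaa

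Of the 484 tested genes with the heptamer, Gna11 had the highest ratio, followed by Cfl2 and Tsen34. The place of Gna11 restates its selection for a site and a rise, and nothing is read from it. Of the genes without the heptamer 37.9% were higher in KO by any amount, against 42.0% with 1 copy and 50% with 2 copies. Of the 3 genes with more copies 2 were higher. Whether ratios go with the number of copies was not tested. The median log2 ratio was -0.08 for the 6843 genes without it and -0.07 for the 445 with 1 copy. It was 0.02 for the 36 with 2 copies and 0.44 for the 3 with more, Gna11 among them. At least 2-fold higher in KO were 0.935% of the genes without it, 1.80% with 1 copy and 2.78% with 2 copies, which is 1 gene. Of the 74 genes with a UTR that were at least 2-fold higher 10 held it (13.5%), the selected Gna11 among them. Of the 76 at least 2-fold lower 7 held it (9.21%), against 6.61% of all tested genes with a UTR. The median UTR had 469.5 bases in the higher genes, 928 in the lower and 1066 in all tested genes. These shares were not corrected for length. For ACTTTAT, which 1172 of the 7327 tested genes with a UTR held, the shares were 12.2% of the higher and 10.5% of the lower genes.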

How the data were processed

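Per the labels and file headers, the authors aligned reads with Cell Ranger and deposited raw UMI counts per gene and barcode, neither normalized nor filtered for cells. The version is 6.1.2 in the submitters' processing notes, while the file headers name another. Matrices held 1957898 WT and 2055088 KO barcodes with 170881210 and 187721815 UMIs. Barcodes needed 8000 UMIs and under 10% mitochondrial UMIs, and doublets were kept. Counts were summed over the cells of a library or group and given as CPM. Log2 ratios carry exact conditional binomial (Clopper-Pearson) 95% intervals, CPM Poisson intervals and shares of cells exact binomial ones. Intervals and the floor of 3 counts for a share of 0 cover counting error only. The ratio and its interval were tested on simulated data.

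The 8 members and all gene lists were chosen with earlier results of these data known. Cells went to groups by summed marker UMIs per 10000, in a fixed order. The thresholds were set after the data were seen, without regard to the members. Gfi1, a neutrophil marker whose UTR holds ACACTAC, had 22.3 CPM in WT and 50.9 CPM in KO, and its part in the gating was not tested. All 8 members were named, with genes of the pathway lists at 10 CPM or more in either library and at least 1.5-fold apart (at most 5 per list), the 5 genes most like Gna11, neighbours within 100 kb, and Mir142hg. Crk, Gpatch11, Bod1, Plcb2, Plcb3, Plcb4, Prkcb, Fos, Itpr2, Gna14, Gnaz, the background subunits and the other genes at least 2-fold higher in each group were named after their values were seen. Gfi1, Rgs1, Rgs2, Rgs18, Rgs19, Gpr146, Gpr171, Adgrg1, F2rl3, Cysltr1 and S1pr1 were also named after their values were seen. Of 32285 gene identifiers 32158 matched the annotation. Python 3.11.15, scipy 1.17.1 and scanpy 1.11.5 were used. Alternatives covered scaling, UMI cutoffs, gates, cell mix, doublets, thinning and free RNA.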

Additional observations from a re-analysis of the deposited data

Results flagged for a closer look

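Several members had intervals above 0 in one cell group and below 0 in another. These differences between groups were not tested, since each group has 1 library per condition. The log2 ratio (KO over WT) of Gna12 was 0.79 in megakaryocyte-gated cells and -0.80 in erythroid-gated cells. That of Gnaq was 0.77 in basophil/mast cells and -0.25 in G2/M-phase cells. For Gna13 it was 0.30 in ungated cells and -0.29 in S-phase cells, and for Gnas 0.18 in monocyte-leaning cells and -0.073 in S-phase cells. With 10 groups for each of 8 members, a few intervals would miss 0 by counting error alone.

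Barcodes of 1000 to 8000 UMIs, which were not counted as cells, had 18.6 CPM of Gna11 in WT and 53.0 CPM in KO. The log2 ratio was 1.51 (95 and 330 UMIs, 95% interval 1.17 to 1.85). The barcodes come from the same libraries, whose free RNA had 15.3 CPM of Gna11 in WT and 40.2 CPM in KO. The part of free RNA in them was not tested. In these barcodes Gnaq was higher in KO as well (35.7 and 53.6 CPM, 0.59), and Gnai3 was lower (99.5 and 75.4 CPM, -0.40), opposite to its direction in cells.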

How the results depend on the processing

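Gna11 was higher in KO under all 10 alternatives, with a log2 ratio from 1.62 (each cell thinned to 8000 UMIs) to 1.84 (libraries scaled by the median ratio over genes). Of the 8 members 1 was at least 2-fold apart under each of them. The number of members higher in KO was 3, but 4 with libraries scaled by the median ratio, where Gna13 was at 0.053, and 6 both at one composition of cell groups and without neutrophil-leaning cells, the latter an alternative added after seeing the data. Ratios changed sign in these last settings for Gnaq (0.090 and 0.016), Gna15 (0.26 and 0.15) and Gnas (0.027 and 0.038), and for Gna12 (-0.069 and -0.056) and Gna13 (0.053 and 0.036), whose main intervals include 0. Gna11 was higher in KO in 10 of 10 cell groups, in 6 of 6 with a cutoff of 16000 UMIs and in 6 of 6 with gate thresholds doubled, where fewer groups held 100 cells in both libraries. The share of cells with a Gna11 UMI differed by 23.2 percentage points thinned and by 37.4 unthinned. Of the 70 values of the other 7 members under alternatives, 43 stayed within the main interval, 21 moved outside it, sign changes of Gna12 and Gna13 included, and 6 turned a sign whose interval had excluded 0. Scrublet's automatic threshold marked 1 WT and 0 KO cells and had not worked, so the 230 WT and 238 KO cells with the highest scores were left out instead.

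No paired analysis was possible because each group had 1 library. The main limits are that 1 library per group leaves the spread between mice unknown, that library, genotype and any handling difference cannot be told apart, and that the cell mix differed so much that ratios over all cells of Gnaq, Gna15, Gnai3 and Gnas depend on it.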
